A study of Mus musculus with 12 samples.

Results

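Glucocorticoid-responsive and growth arrest genes were followed through 3 mouse models of cardiac overload and injury. The set holds 10 genes chosen by symbol in the platform's annotation, namely Fkbp5, Tsc22d3, Zbtb16, Sgk1, Klf9, Klf15, Cdkn1a, Gadd45g, Mt1 and Mt2, out of 18194 genes with a probe set listed under a single symbol. Of those, 11623 were bright enough to be tested, and all 10 members were among them. The members have 25 probe sets. Each gene is given by its brightest probe set, and the other probe sets of the 6 genes that have several served as a check. The members were chosen with earlier results of these data known, so their counts beside shares of all genes are descriptions only.

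Left ventricles of Balb/c mice aged 6 to 8 weeks were measured, 1 array to a group, on 12 arrays. No knockout, transgene or other allele is named in the labels, and whether an array holds 1 animal or a pool is not stated. Transverse aortic constriction (TAC), which narrows the aorta and raises the load on the ventricle, was sampled at 1 day, 1 week and 1 month, each with a sham of its own. Myocardial infarction (MI) by closing the left coronary artery was sampled at 1 week and 1 month, each with a sham whose artery was not tied. The series text adds a release of the tie after 30 min, which the array labels do not mention. Angiotensin II (Ang II), which constricts vessels and raises blood pressure, was given by pump for 1 week at 2 mg/kg/day, and its control received saline in the same way. The series text places a 1 day harvest under MI, whereas the array labels place it under TAC, and the array labels were followed.

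Glucocorticoids, the steroid hormones of the adrenal stress response, bind a receptor that rests in the cytoplasm with heat shock proteins, moves to the nucleus and switches genes on or off. The heart carries this receptor, and surgery, pain and fasting all raise the hormone in rodents. Cell cycle inhibitors and stress sensors such as p21 and the GADD45 proteins are induced by DNA damage, cytokines and load, and metallothioneins, small proteins that bind zinc and copper, respond to metals, cytokines and glucocorticoids. Several of these genes also follow the daily rhythm, and the hour of harvest is not given in the sources used here.

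Promoter windows of 300 bases, 250 before and 50 from the start of the gene on, were matched for 9 of the 10 members in RefSeq's GRCm38.p6 table. Each window was searched on both strands for 4 motifs. The 6-base motif that 1 arm of the glucocorticoid receptor dimer binds, AGAACA, was present in 19% of all 32851 windows, and the core of its spaced palindrome, ACANNNTGT, in 6.85%. For the metal response core a loose pattern was searched, TGCNCNC, in which each N is any base. It was present in 51%, and the E-box, CACGTG, which clock factors bind, in 7.15%. The receptor motifs can overlap each other, and a match is a description of the letters only. The windows below are shown because Mt1 and Mt2 stood out in the 1 day arrays and because 1 window of Sgk1 holds an inverted pair of receptor motifs 3 bases apart, an arrangement found in 3 of the 32851 windows (0.00913%). That arrangement was looked at after the single motifs had been found. Capitals mark the matches to TGCNCNC, on either strand, in Mt1 and Mt2, and the receptor motifs in Sgk1.

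Mt2, plus strand, chr8:94172368-94172667: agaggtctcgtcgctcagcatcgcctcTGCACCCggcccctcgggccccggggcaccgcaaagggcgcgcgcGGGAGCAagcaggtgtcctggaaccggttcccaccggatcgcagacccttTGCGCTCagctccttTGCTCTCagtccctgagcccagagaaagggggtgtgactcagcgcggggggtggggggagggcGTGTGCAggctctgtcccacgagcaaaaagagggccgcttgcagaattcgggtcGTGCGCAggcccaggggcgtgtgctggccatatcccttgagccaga
Mt1, plus strand, chr8:94178839-94179138: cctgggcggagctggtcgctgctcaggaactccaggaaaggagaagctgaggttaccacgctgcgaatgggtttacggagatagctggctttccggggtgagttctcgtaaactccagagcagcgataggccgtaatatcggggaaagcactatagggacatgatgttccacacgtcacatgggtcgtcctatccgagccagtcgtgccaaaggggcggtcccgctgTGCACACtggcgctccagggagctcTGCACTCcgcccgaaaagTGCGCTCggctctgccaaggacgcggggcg
Sgk1, plus strand, chr10:21993671-21993745: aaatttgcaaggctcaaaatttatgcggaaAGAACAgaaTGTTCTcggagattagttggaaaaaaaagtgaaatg

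The Mt2 window holds 6 matches to the loose pattern TGCNCNC, a number reached by 0.225% of all windows. The Mt1 window holds 3, reached by 7.1%. The windows of these neighbouring genes start 6471 bases apart on the same strand of chromosome 8. Outside Sgk1, AGAACA was found only in Tsc22d3, in 1 of its 3 windows. The Klf15 window holds 3 E-boxes. The windows of Fkbp5 and Gadd45g hold 1 each, as does the Sgk1 window with the inverted pair. Apart from windows of Sgk1, ACANNNTGT was found only in that of Mt1.

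Trimmed mean signals of the deposited arrays lay between 105 and 131 and were brought to a common value, with factors from 0.872 to 1.09. Signals below are these scaled signals, and differences are log2 ratios of a procedure array to its own control. The 7 cardiomyocyte markers were above the floor on every array, with summed signals of 69064 to 86413 on procedure arrays and 81289 to 88967 on controls. The TAC 1 day array stood apart. It was above all 11 other arrays in 16% of tested genes and below all of them in 25%, and its deposited values carry 6 decimals where those of the others carry 1. Calls that rest on it are therefore also given without that pair. In bulk tissue, fewer cells of a type and less RNA per cell cannot be told apart.

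Over the mean of the 6 pairs, the cell cycle inhibitor Cdkn1a, the metallothionein Mt2 and the kinase Sgk1 rose, and the Krüppel-like factors Klf9 and Klf15 fell. Cdkn1a rose by 1.01 ± 0.21 on the log2 scale (SE of the limma fit, Benjamini-Hochberg adjusted p = 0.0198), or 2.01-fold. Mt2 rose by 1.14 ± 0.27 (limma adjusted p = 0.0285) and Sgk1 by 0.38 ± 0.087 (adjusted p = 0.0266). Klf15 changed by -0.47 ± 0.13 (limma adjusted p = 0.0462) and Klf9 by -0.33 ± 0.08 (adjusted p = 0.032). Each standard error rests on 6 pairs with 1 array a group, so it holds differences between models and times as well as noise.

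The 5 called members, 3 higher and 2 lower, compare with 10.9% of all tested genes that passed the same limma test, 5.14% higher and 5.76% lower. The other members did not pass, with Fkbp5 at 0.55 ± 0.16 (limma adjusted p = 0.0504), Mt1 at 0.39 ± 0.12 (adjusted p = 0.0647), Gadd45g at 1.10 ± 0.37 (adjusted p = 0.0839), Tsc22d3 at 0.26 ± 0.11 (adjusted p = 0.134) and Zbtb16 at -0.23 ± 0.24 (adjusted p = 0.578). Without the TAC 1 day pair 6 members passed, beside 10.9% of all genes, 5.5% higher and 5.38% lower. Fkbp5 (0.37 ± 0.10, limma adjusted p = 0.038) and Gadd45g (0.60 ± 0.13, adjusted p = 0.0188) then joined, Klf15 (-0.44 ± 0.14, adjusted p = 0.0673) dropped out, and Cdkn1a, Mt2, Sgk1 and Klf9 were called as before. The calls lie near the threshold. Leaving out the TAC 1 month pair left 0 of 10 members called, leaving out the TAC 1 week or the MI 1 week pair 1, and leaving out the MI 1 month pair 2, while 256 to 287 of all genes were called, although the directions of the 5 members held throughout. Without the pair as a block 0 members were called, and Sgk1 then had an adjusted p of 0.0541 and Cdkn1a of 0.294.

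**Figure D1:**
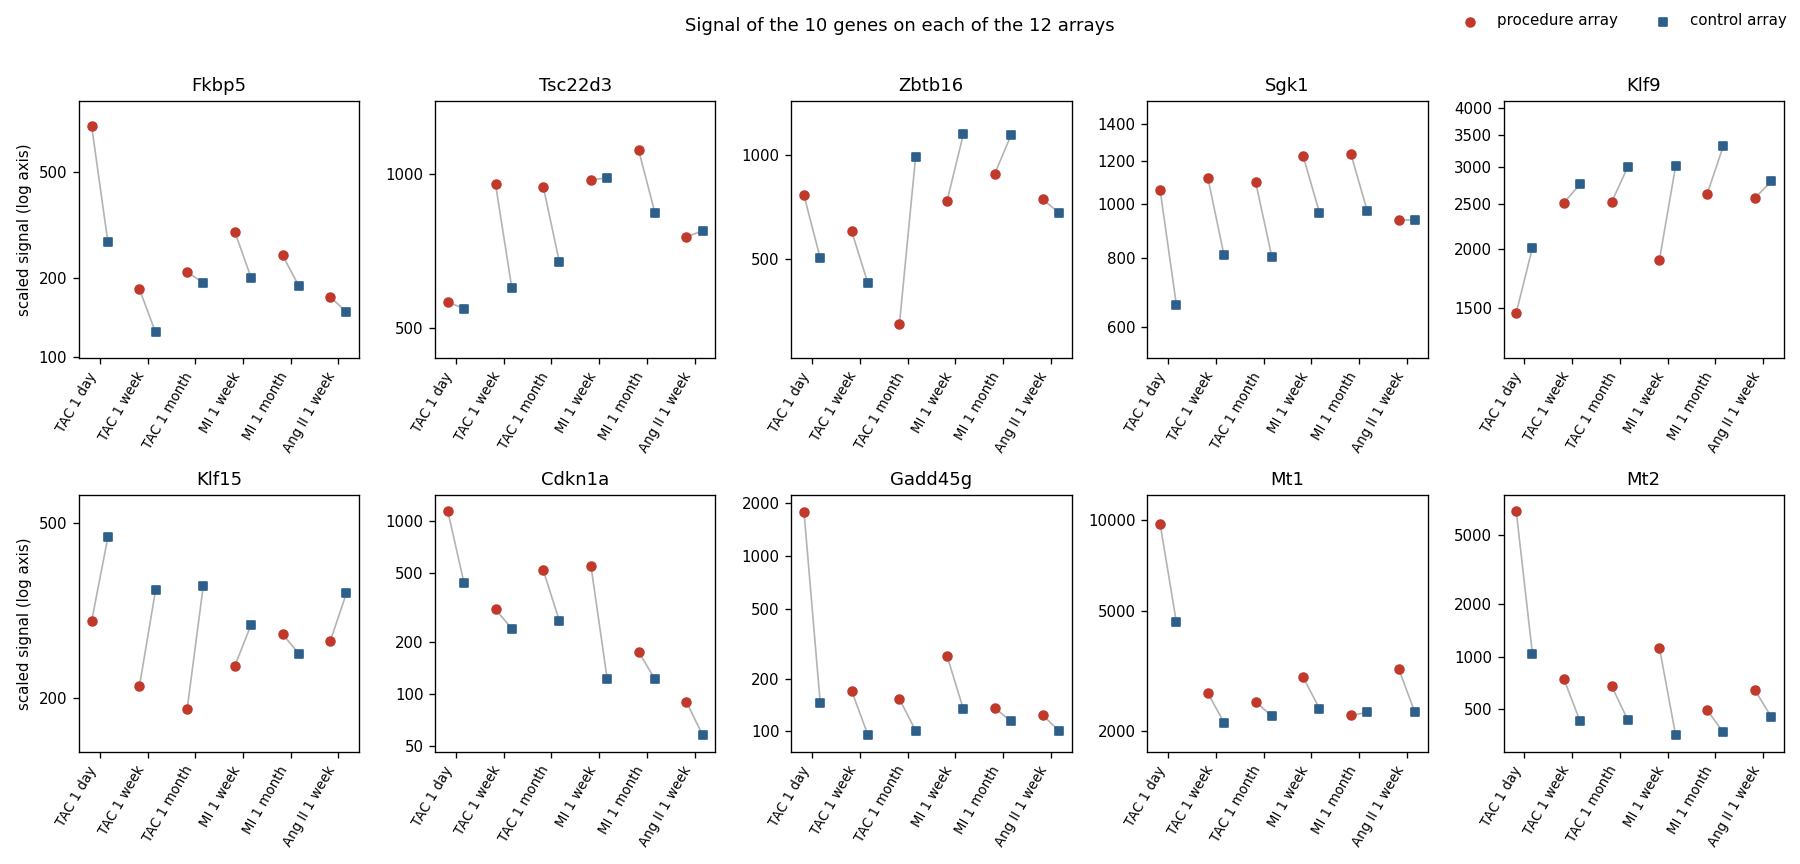
Scaled signal (log axis) of the 10 genes on each array, a panel to a gene, with the procedure array (red circle) joined to its own control (blue square) in each of the 6 pairs. The TAC 1 day circle is the highest of the 12 arrays for Fkbp5, Cdkn1a, Gadd45g, Mt1 and Mt2 and the lowest for Klf9.

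Fkbp5 encodes a co-chaperone that lowers the hormone affinity of the glucocorticoid receptor and is itself a receptor target. Its signal was 746 after TAC at 1 day against 272 in the sham, 181 against 124 at 1 week, and 210 against 191 at 1 month. After MI it was 298 against 200 at 1 week and 243 against 186 at 1 month, and with Ang II it was 169 against 148. The procedure array was the higher in all 6 pairs, but only the TAC 1 day ratio of 1.45 exceeded the largest difference between controls of 1 time, 0.68. For every member such differences come from controls at 1 week and 1 month, as 1 day has a single control. A second probe set gave a mean of 0.63 and was higher in 5 of 6 pairs, the exception being MI at 1 month (-0.33). The third was under the floor on 11 of the 12 arrays and gives no level.

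Tsc22d3 encodes GILZ, a leucine zipper protein that mediates anti-inflammatory actions of glucocorticoids. Signals after TAC were 561 at 1 day, 954 at 1 week and 944 at 1 month, against 545, 599 and 671 in the shams of these times. MI gave 973 at 1 week and 1112 at 1 month against 982 and 839 in shams, and Ang II gave 753 against 773 in its control. The gene was thus higher in the later TAC pairs (0.67 and 0.49) and at 1 month of MI (0.41), and within 0.05 of its control in the other 3 pairs. No ratio exceeded the largest difference between controls of 1 time, 0.71, and with the mean of all probe sets the ratio at 1 month of MI was -0.052. Unlike Fkbp5, it was not higher in the TAC 1 day pair, with a ratio of 0.041. The next brightest probe set ran alike, with a mean of 0.29, whereas the third had a mean of -0.093 and the dimmest of -0.53.

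Zbtb16 encodes PLZF, a zinc finger repressor strongly induced by glucocorticoids in many human and rodent cells. After TAC its signal was 764 against 504 in the sham at 1 day, 602 against 426 at 1 week and 324 against 987 at 1 month. With MI it was 737 against 1146 at 1 week and 883 against 1140 at 1 month, and with Ang II 745 against 681. The gene was higher in 3 pairs and lower in 3. The TAC 1 month array, at a ratio of -1.61, held the lowest of its 12 signals, and both dimmer probe sets were also lower there (-1.21 and -0.48). Its controls of 1 time differed by up to 1.43, and without the TAC 1 month pair the mean was 0.045.

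Sgk1 encodes a serum- and glucocorticoid-induced kinase that controls ion channels and cell survival. Its signal after TAC was 1062 at 1 day, 1117 at 1 week and 1099 at 1 month, against 658, 808 and 804 in the shams. After MI it was 1221 at 1 week and 1232 at 1 month against 965 and 973, and with Ang II it was 936 against 936. The 5 surgical procedure arrays all lay above the 6 controls, which ended at 973, and only the Ang II array lay among them. Those 5 ratios, 0.34 to 0.69, exceeded the largest difference between controls of 1 time, 0.28. The gene has 1 probe set.

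The Krüppel-like factors Klf9 and Klf15 are zinc finger transcription factors induced by glucocorticoids, and Klf15 also drives the use of amino acids and lipids in heart muscle. Klf9 signal after TAC was 1463 at 1 day, 2515 at 1 week and 2522 at 1 month, against 2016, 2756 and 3003 in shams. After MI it was 1897 at 1 week and 2624 at 1 month against 3011 and 3322, and with Ang II it was 2571 against 2792. On scaled signals it was lower in all 6 pairs, most at 1 week of MI (-0.67), although the TAC 1 week and Ang II ratios lay within the largest difference between controls of 1 time, 0.15. On the deposited scale it was higher in the TAC 1 week (0.088) and TAC 1 month (0.064) pairs. The fall also depends on the probe set. The next 2 of its 7 probe sets had means of -0.21 and -0.26, but the mean of all 7 was -0.10 (limma adjusted p = 0.642), with 0.38 in the TAC 1 week pair and 0.01 with Ang II.

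Klf15 signal after TAC was 299 at 1 day, 212 at 1 week and 188 at 1 month, against 464, 352 and 360 in shams. After MI it was 236 at 1 week and 279 at 1 month against 293 and 252, and with Ang II it was 269 against 346. It was lower in 5 pairs and slightly higher at 1 month of MI (0.14). Only the 3 TAC ratios, -0.64, -0.73 and -0.94, exceeded the largest difference between controls of 1 time, 0.52. On unscaled signals the mean was -0.37 ± 0.14 and did not pass (limma adjusted p = 0.128), nor did Klf9 (-0.23 ± 0.10, adjusted p = 0.201).

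Cdkn1a encodes p21, an inhibitor of cyclin-dependent kinases and a p53 target. TAC gave signals of 1133 at 1 day, 308 at 1 week and 518 at 1 month, against 438, 239 and 264 in shams. MI gave 549 at 1 week and 175 at 1 month against 122 and 122, and Ang II gave 90.2 against 58. It was higher in all 6 pairs, by 4.52-fold at 1 week of MI, where the ratio was 2.18. Its controls also differed most of all members, by up to 2.04 between the TAC sham and the Ang II control at 1 week, and only the MI 1 week ratio exceeded that. Over all arrays the groups overlapped, with 90.2 to 1133 on procedure arrays and 58 to 438 on controls. The dimmer probe set, near the floor, was higher in 4 of 6 pairs, and with the mean of both the ratio at 1 month of MI was -0.48.

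Gadd45g encodes a small stress protein that activates p38 and JNK kinase signalling and slows the cell cycle. Its signal after TAC was 1789 at 1 day, 170 at 1 week and 153 at 1 month, against 146, 95.5 and 101 in shams. After MI it was 269 at 1 week and 136 at 1 month against 134 and 114, and with Ang II it was 124 against 101. The TAC 1 day array was 12.2-fold above its sham (3.61), which ranked 16 of 11623 genes in that pair, and the other 5 ratios ran from 0.25 to 1.01. The 3 TAC ratios and the MI 1 week ratio exceeded the largest difference between controls of 1 time, 0.49.

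Mt1 and Mt2 encode the metallothioneins expressed in most tissues. Mt1 signal after TAC was 9689 at 1 day, 2675 at 1 week and 2504 at 1 month, against 4599, 2139 and 2249 in shams. After MI it was 3014 at 1 week and 2258 at 1 month against 2379 and 2312, and with Ang II it was 3216 against 2313. The gene was higher in 5 pairs, by 1.07 after TAC at 1 day and by 0.48 with Ang II, and at 1 month of MI it was at -0.034. The dimmer probe set went the other way with Ang II (-1.56), so that the mean of both was -0.54 there, and was at 2.02 at 1 week of MI and 2.25 after TAC at 1 day. The suffix of the Mt1 probe set marks probes that can bind transcripts of more than 1 gene, so a share from another metallothionein cannot be told apart.

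Mt2 signal after TAC was 6883 at 1 day, 740 at 1 week and 675 at 1 month, against 1030, 422 and 429 in shams. MI gave 1127 at 1 week and 491 at 1 month against 352 and 365, and Ang II gave 642 against 450. It was higher in all 6 pairs, and every ratio, from 0.43 to 2.74, exceeded the largest difference between controls of 1 time, 0.35. Over all arrays the groups overlapped, with 491 to 6883 on procedure arrays and 352 to 1030 on controls. The highest control was the 1 day sham, and the later controls ended at 450. At 1 day of TAC the ratio was 6.68-fold and ranked 64 of 11623 genes, and at 1 week of MI it was 3.2-fold. Without the TAC 1 day pair the mean was 0.82 ± 0.15 (limma adjusted p = 0.0128).

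**Figure D2:**
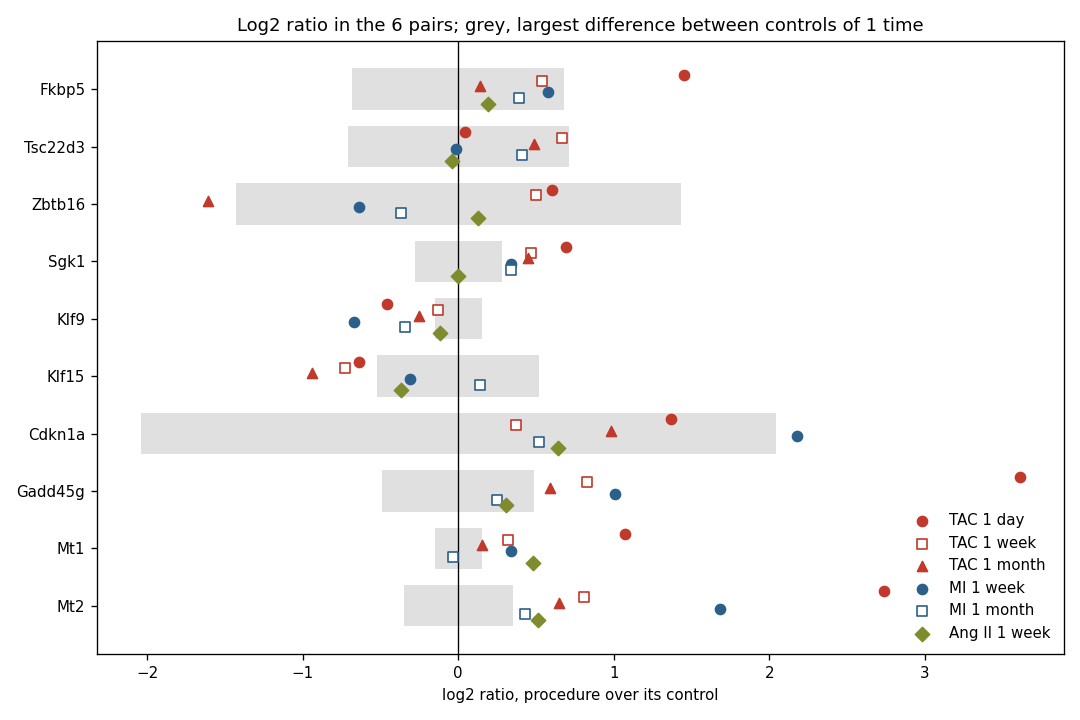
Log2 ratio of procedure to control in each of the 6 pairs (symbols) for the 10 genes, with a grey bar from minus to plus the largest difference between controls of 1 time. All 6 Mt2 symbols lie to the right of its bar, from 0.43 to 2.74, whereas only 1 Cdkn1a symbol does.

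In single pairs, which have no replicate and no test, a change was counted when it was at least 2-fold, its brighter signal was above 25.9, the median of all signals, and the procedure array lay outside the 6 controls. After TAC at 1 day 5 members were past 2-fold, all higher, namely Fkbp5, Cdkn1a, Gadd45g, Mt1 and Mt2, where 5.66% of all tested genes were past it upward and 12.1% in either direction. At 1 week of MI 3 were, Cdkn1a, Gadd45g and Mt2, beside 6.07% of all genes upward and 7.36% in either direction. After TAC at 1 month 1 was, Zbtb16, which was lower, beside 1.27% of all genes downward and 3.18% in either direction. In the TAC 1 week, MI 1 month and Ang II pairs 0 members were past 2-fold, beside 3%, 3.48% and 1.68% of all genes. The median ratio of the 10 members was 0.88 in the TAC 1 day pair, 0.48 and 0.30 in the later TAC pairs, 0.34 and 0.30 in the MI pairs and 0.16 with Ang II, while the medians of all genes ran from -0.078 to 0.015. Higher in all 6 pairs were 4 members, Fkbp5, Cdkn1a, Gadd45g and Mt2, beside 8.65% of all genes, and 1 member, Klf9, was lower in all 6, beside 10.7%. With the mean of all probe sets Cdkn1a was not higher at 1 month of MI, nor Klf9 lower in the TAC 1 week and Ang II pairs.

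Pressure overload and infarction were then set against each other. Averaged over the 3 TAC pairs, Klf15 changed by -0.77 ± 0.14 (limma adjusted p = 0.0374) and Sgk1 by 0.54 ± 0.10 (adjusted p = 0.0387), and these were the 2 members called, beside 2.5% of all genes. Neither call held when any of the TAC 1 week, TAC 1 month, MI 1 week or MI 1 month pairs was left out (limma adjusted p from 0.0873 to 0.132). With either MI pair left out the values stayed at -0.77 and 0.54, while the calls over all genes fell from 291 to 31 or 30. The calls did not hold with no intensity trend either (limma adjusted p = 0.157 and 0.173), and over 13 alternatives each was called in 5. Over the 2 MI pairs 0 members were called by limma beside 0.938% of all genes, and 3 had an unadjusted p under 0.05, beside 17.3%. The MI values were 1.35 ± 0.37 for Cdkn1a, 1.05 ± 0.48 for Mt2, -0.50 ± 0.13 for Klf9, 0.34 ± 0.12 for Sgk1 and -0.082 ± 0.17 for Klf15. Without the TAC 1 day pair 4 members were called over the MI pairs, beside 13.1% of all genes, with Cdkn1a, Mt2, Sgk1 and Klf9 at the same values and adjusted p of 0.021, 0.0154, 0.0325 and 0.00808. Over the later TAC pairs alone 3 members were called, beside 5.85% of all genes, with Tsc22d3 (0.58 ± 0.12, limma adjusted p = 0.0201) beside Klf15 and Sgk1. The Tsc22d3 call rests on its brightest probe set. With the mean of all its probe sets the ratios were 0.26 at 1 week and 0.13 at 1 month of TAC.

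The difference between TAC and MI was itself tested, and limma called 0 of 11623 genes, with 529 (4.55%) at an unadjusted p under 0.05. Among members only Klf15 was past that unadjusted limit, at -0.69 ± 0.22 (limma adjusted p = 0.98). For Sgk1 the difference was 0.20 ± 0.15. Without the TAC 1 day pair limma also called 0 genes, with 1029 at an unadjusted p under 0.05, and Klf15 was at -0.75 ± 0.20 (adjusted p = 0.349). These standard errors leave room for differences of the size of the effects themselves, and the TAC mean includes a time that MI lacks.

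The last comparison set the 1 day TAC sham against the 5 later controls, which are the TAC and MI shams at 1 week and 1 month and the saline pump control of Ang II. At 1 day after the sham operation both metallothioneins were above all 5 later controls, and they were 2 of the 3 genes that passed limma's test among the 11623 tested. With no filter on dim genes 139 genes passed. Mt1 was at 4599 in the 1 day sham against 2139 to 2379 in the later controls, a difference of 1.01 ± 0.10 (limma adjusted p = 0.00407). Mt2 was at 1030 in the 1 day sham against 352 to 450, a difference of 1.36 ± 0.16 (adjusted p = 0.0231). The 1 day sham lay clear of the later controls, by 0.95 for Mt1 and 1.19 for Mt2 from the nearest. The third gene was Dyrk1b, a kinase, at 4.74 in the 1 day sham against 50.9 to 94.3 (-3.95 ± 0.36, adjusted p = 0.00407). Called genes made up 0.0258% of those tested, and 12% had an unadjusted p under 0.05. The 1 day sham is a single array, assumed in the fit to vary like the later controls, so its hour of harvest, its RNA, the kind of control and the time since surgery cannot be told apart. Because the members were chosen with earlier results of these data known, the place of Mt1 and Mt2 here is no independent test of them. With no intensity trend in the variance neither metallothionein passed, while other genes did.

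The other members did not pass in this comparison. Cdkn1a was at 438 in the 1 day sham against 58 to 264 in the later controls (1.64 ± 0.61, limma adjusted p = 0.328). Fkbp5 was at 272 against 124 to 200 (0.70 ± 0.25, adjusted p = 0.32), and Klf15 at 464 against 252 to 360 (0.55 ± 0.20, adjusted p = 0.328). Gadd45g, at 146 against 95.5 to 134, was above all later controls by a narrow margin (0.44 ± 0.22, limma adjusted p = 0.457). Below all later controls were Klf9 (2016 against 2756 to 3322, -0.56 ± 0.11, limma adjusted p = 0.14), Sgk1 (658 against 804 to 973, -0.44 ± 0.15, adjusted p = 0.293) and Tsc22d3 (545 against 599 to 982, -0.48 ± 0.22, adjusted p = 0.417). Zbtb16 lay inside their range at 504 (-0.70 ± 0.43, limma adjusted p = 0.532). So 6 members were above and 3 below every later control, while 23.7% of all genes were above and 21.4% below.

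Probe sets mattered here too. The next 2 Klf9 probe sets were at 0.26 and 0.10, opposite in sign to the brightest, and the dimmer Mt1 probe set, with a median signal of 18.8, was at -0.41, so that the mean of both gave 0.30 ± 0.32 (limma adjusted p = 0.769). With only the TAC series shams at 1 week and 1 month as later controls, 4 members were called, Mt1, Mt2, Cdkn1a (0.81 ± 0.16, limma adjusted p = 0.044) and Klf9 (-0.51 ± 0.095, adjusted p = 0.0378), beside 204 of all genes. Without the TAC sham at 1 week Mt2 was at 1.38 ± 0.18 (adjusted p = 0.055), and without the MI sham at 1 month at 1.32 ± 0.17 (limma adjusted p = 0.0622).

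The TAC 1 day array, set against the same 5 later controls without a test, was at 4.10 for Mt2, 4.05 for Gadd45g, 3.01 for Cdkn1a, 2.16 for Fkbp5 and 2.09 for Mt1. For these 5 genes the TAC 1 day array and its sham lay on the same side of the later controls, and TAC was the farther. Klf9 did the same below them, at -1.02 for TAC against -0.56 for the sham. Klf15 did not, since its TAC 1 day signal of 299 fell within the later controls (-0.088) while the sham's lay above them. Sgk1 was at 0.25 in the TAC 1 day array against -0.44 in the sham, on opposite sides. Tsc22d3 was low in both, at -0.44 against -0.48.

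**Figure D3:**
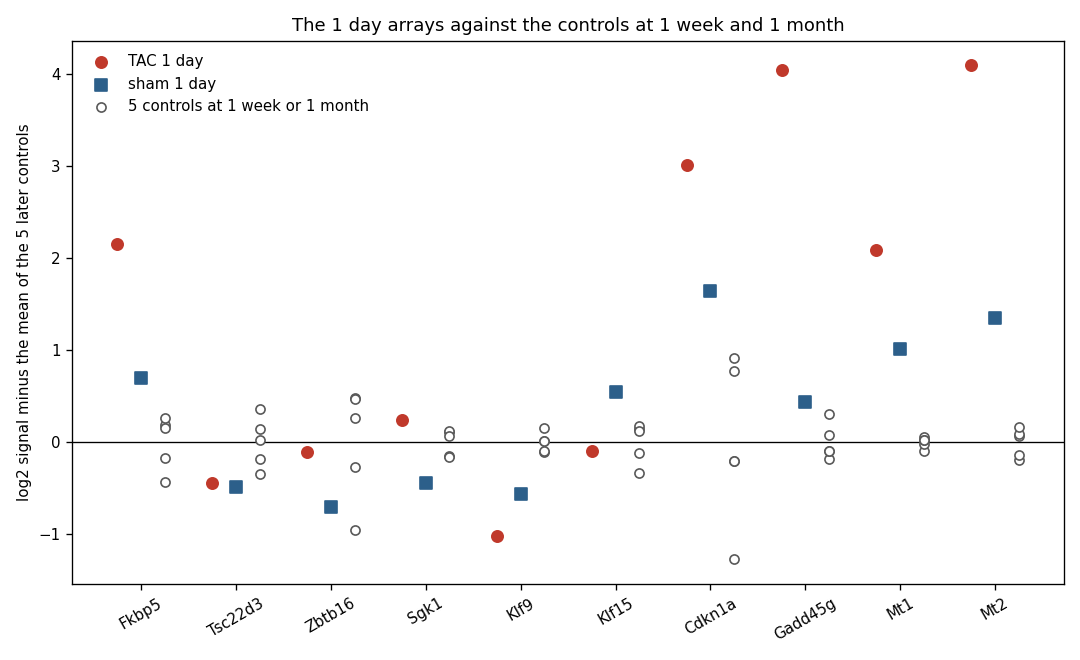
Log2 signal minus the mean of the 5 controls at 1 week and 1 month, for the 10 genes, with the TAC 1 day array (red circles), the 1 day sham (blue squares) and the later controls (open circles). Mt1 and Mt2 squares lie at 1.01 and 1.36, well clear of their open circles, and Zbtb16 is the only gene whose square lies among them.

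Markers of other cells moved with some of these values. Summed signal of the 5 neutrophil markers on the array was 1489 after TAC at 1 day against 173 in its sham, and 888 at 1 week of MI against 151, while in the other pairs it ran from 70.5 to 176 on procedure arrays and from 59.3 to 342 on controls. Macrophage markers, 8 genes, summed to 5978 after TAC at 1 day against 3822 and to 11883 at 1 week of MI against 4606. Their sum was higher in the other pairs too, with 7272 against 3987 at 1 month of MI, where no member was past 2-fold. Cdkn1a, Gadd45g and Mt2 were past 2-fold in the TAC 1 day and MI 1 week pairs. Fibroblast markers, 6 genes, summed to 28781 at 1 week of MI against 11106, to 20667 against 11105 and 17385 against 9506 at 1 week and 1 month of TAC, to 18596 against 8713 at 1 month of MI, and to 11853 against 9274 after TAC at 1 day. So they were higher also in pairs with no member past 2-fold upward. The 3 smooth muscle markers summed to 700 against 279 after TAC at 1 day and 968 against 418 at 1 week of MI. Cnn1 (2.17 and 1.69) and Tagln (1.56 and 1.56) were higher in these pairs, but Myh11 was slightly lower (-0.15 and -0.19). The 4 atrial markers, Nppa among them, summed to 6087 against 3549 and 18950 against 2493 in these pairs. After TAC at 1 day Nppa was at 1.06 and Sln at 0.46, while Myl4 was at 0.034 and Myl7 at -0.20. The atrial sum was also higher in the other pairs, with 10444 against 2579 at 1 week of TAC and 11586 against 2813 at 1 month of MI. The part of these cells in the members' values was not tested. In the 1 day sham the neutrophil sum of 173 and the macrophage sum of 3822 lay within the later controls, which ran from 59.3 to 342 and from 3261 to 5680. Fibroblast, smooth muscle, adipocyte and atrial sums also lay within them. The sum of 5 endothelial markers, 2644, lay above the later controls (1786 to 2230), as did that of 2 brown fat markers, 496 (354 to 443). The cardiomyocyte sum of 81289 lay below them (83660 to 88967). Of the neutrophil markers, S100a9, Cxcr2 and Mmp8 were under the floor on some arrays, and none of the 5 was under it on all.

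Other glucocorticoid-responsive genes, a list of 24 of which 23 were tested, had 2 called higher and 0 lower in the mean of 6 pairs, beside 5.14% and 5.76% of all genes. Cebpd, a transcription factor of acute inflammation, rose by 0.91 ± 0.23 (limma adjusted p = 0.0381) and Dusp1, a phosphatase that shuts off MAP kinases, by 0.36 ± 0.095 (adjusted p = 0.0408). Lcn2, an iron-binding protein of neutrophils and stressed tissue, was at 1.01 ± 0.47, while Ucp3, a mitochondrial carrier of muscle, was at -0.69 ± 0.23 and Rgs2, a regulator of G protein signals, at -0.41 ± 0.23, none of them called. The median of the list was 0.21 beside -0.0055 for all genes, and 0.12 without the TAC 1 day pair, where Cebpd (0.67 ± 0.17) and Dusp1 (0.39 ± 0.10) were again the genes called. Its median was 0.64 in the TAC 1 day pair, where Angptl4, a lipase inhibitor, was at 2.70, and from -0.027 to 0.24 in the others. In the 1 day sham, a single array, the list median was -0.21 against the later controls. Below all later controls were 9 genes and above them 4, beside 21.4% and 23.7% of all genes. Among those above, Lcn2 was at 500 against 9.18 to 172 (3.93 ± 1.09). Angptl4 was at 257 against 44.6 to 121 (1.84 ± 0.41).

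**Figure D4:**
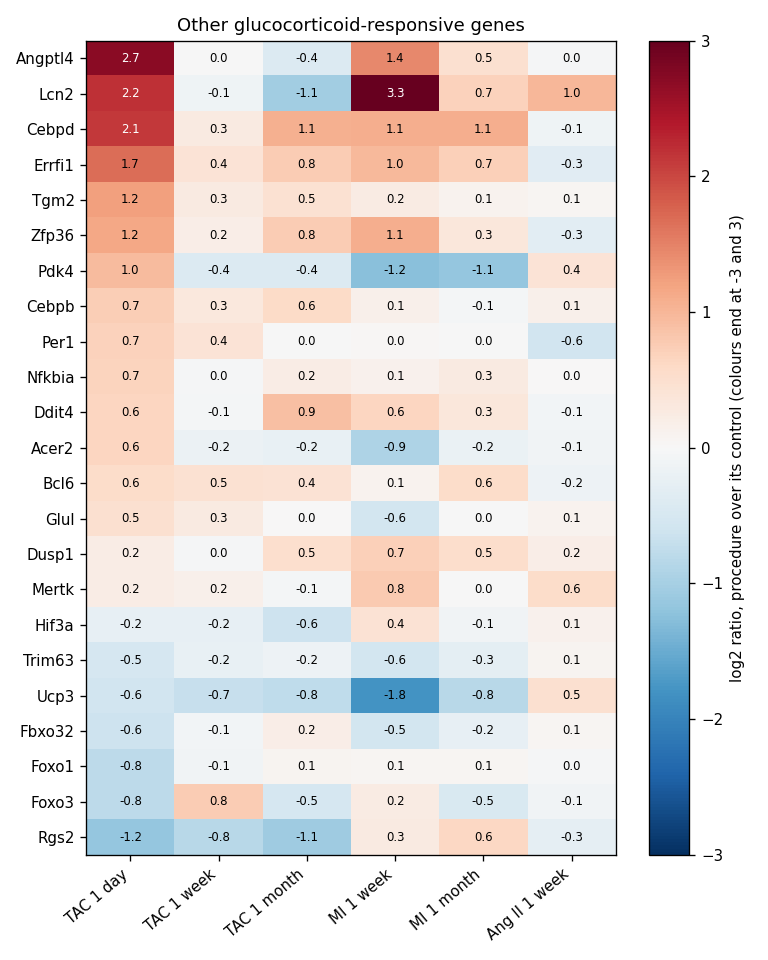
Log2 ratio of procedure to control for the 23 other glucocorticoid-responsive genes (rows, ordered by the TAC 1 day ratio) in the 6 pairs (columns), with red above and blue below 0 and colours that end at 3. The TAC 1 day column runs from Angptl4 at 2.70 to Rgs2 at -1.17 and the MI 1 week column from Lcn2 at 3.34 to Ucp3 at -1.79, while the Ang II column is paler, from 0.99 to -0.58.

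The glucocorticoid receptor gene itself, Nr3c1, was at 0.10 ± 0.10. Of 9 measured genes for the receptors, chaperones, coactivators and a steroid enzyme, 1 was called, Fkbp4, a co-chaperone that helps carry the receptor to the nucleus, which changed by -0.69 ± 0.10 (limma adjusted p = 0.00621) and was lower in all 6 pairs. Fkbp5, its counterpart in the same receptor complex, was higher in all 6. Fkbp4 was at -0.60 ± 0.08 (limma adjusted p = 0.00332) without the TAC 1 day pair. Hsp90aa1, an inducible heat shock protein, was at 0.27 ± 0.18, the co-chaperone Stip1 at 0.10 ± 0.16, Nr3c2, the mineralocorticoid receptor, at -0.54 ± 0.17 and Hsd11b1, which regenerates active hormone, at -0.43 ± 0.14. The list median was -0.24, and 1 of 9 called lower stands beside 5.76% of all genes.

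Of 16 measured growth arrest and p53 target genes other than the members, 2 were called higher and 1 lower, beside 5.14% and 5.76% of all genes. Btg2, an antiproliferative gene, rose by 0.78 ± 0.19 (limma adjusted p = 0.0317) and Phlda3, an inhibitor of AKT, by 0.41 ± 0.089 (adjusted p = 0.0224). Ccng1, cyclin G1 and also a p53 target, changed by -0.30 ± 0.078 (limma adjusted p = 0.0403). The CDK inhibitor Cdkn2b was at 0.76 ± 0.25, Cdkn1c at -0.52 ± 0.18 and Gadd45a, a relative of Gadd45g, at -0.43 ± 0.13. The list median was 0.21. Leaving out the TAC 1 day pair, Btg2 was at 0.57 ± 0.12, Phlda3 at 0.39 ± 0.09 and Ccng1 at -0.23 ± 0.07, which no longer passed (limma adjusted p = 0.0585).

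Among 8 measured genes of metal handling 2 were called, both zinc importers and both higher, beside 5.14% of all genes. Slc39a6 rose by 0.93 ± 0.24 (limma adjusted p = 0.0385) and Slc39a10 by 0.42 ± 0.12 (adjusted p = 0.046). With the TAC 1 day pair left out Slc39a6 was at 0.71 ± 0.20 (limma adjusted p = 0.0476) and Slc39a10 at 0.33 ± 0.10 (adjusted p = 0.0646). Hmox1, which breaks down heme, was at 0.68 ± 0.33 without passing, with 2.09 in the TAC 1 day pair and 1.98 at 1 week of MI. Fth1, the ferritin heavy chain, was at -0.17 ± 0.065 and Tfrc, the transferrin receptor, at -0.16 ± 0.12. Mtf1, the factor that binds metal response elements, was at 0.13 ± 0.17 over the pairs and at 0.56 ± 0.26 in the 1 day sham. The list median was 0.12.

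Of 9 other Krüppel-like factors tested, Klf6 rose by 0.60 ± 0.14 (limma adjusted p = 0.0273) and Klf2, which responds to blood flow in endothelium, by 0.42 ± 0.11 (adjusted p = 0.0438), the opposite direction to Klf9 and Klf15. These 2 called higher stand beside 5.14% of all genes, and without the TAC 1 day pair they were at 0.45 ± 0.089 and 0.51 ± 0.10. Klf12 was at -0.51 ± 0.15 and Klf3 at -0.12 ± 0.074, and the list median was 0.21. Of 8 measured KLF15 target genes 4 were called, all lower, beside 5.76% of all genes. Bckdha and Bckdhb, subunits of the branched-chain keto acid dehydrogenase, each changed by -0.56 (SE 0.08 and 0.075, limma adjusted p = 0.00616 and 0.00478). Prodh, proline dehydrogenase, changed by -0.75 ± 0.17 (adjusted p = 0.0275) and Gpt, an alanine aminotransferase, by -0.56 ± 0.12 (limma adjusted p = 0.0228). Slc2a4, the insulin-responsive glucose carrier, was at -0.64 ± 0.19 (adjusted p = 0.0597), and the highest of the list were Lpl, a lipase, at -0.16 ± 0.06 and Cd36, a fatty acid carrier, at -0.19 ± 0.072. Without the TAC 1 day pair 5 were called lower, the 4 above and Slc2a4 (-0.38 ± 0.065, limma adjusted p = 0.009), beside 5.38% of all genes. The list median was -0.56, or -0.43 without that pair, and at 1 month of MI, where Klf15 was at 0.14, it was -0.49.

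Clock genes differed within pairs as well. Of 15 measured, 0 were called in the mean of the 6 pairs by limma's adjusted p, beside 10.9% of all genes. Dbp, a clock output factor, was at -1.91 in the TAC 1 day pair, -0.96 in the TAC 1 month pair and -2.15 in the MI 1 week pair, against 0.35 in the TAC 1 week pair. Arntl, which encodes the core activator BMAL1, was at 3.09 at 1 week of MI and at -0.88 at 1 week of TAC. Controls at 1 week and 1 month also differed widely, with signals from 468 to 2047 for Dbp and from 9.28 to 116 for Arntl. Hlf, another output factor, averaged -0.72 ± 0.23, and Bhlhe40, a repressor, 0.21 ± 0.084. Bhlhe40 was the 1 clock gene called without the TAC 1 day pair, and it was higher, beside 5.5% of all genes. In the 1 day sham the median of the list was -0.38 against the later controls. These differences stand beside those of the glucocorticoid-responsive members in the same pairs, and their part in them was not tested.

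Genes with the most similar pattern to each member over the 12 arrays were listed as a description, by Pearson's r of log2 signal. Because the TAC 1 day array is far from the others for many genes, Spearman's rho is given too. Gadd45g ran closest to Tgm2, a transglutaminase (r = 0.982, rho = 0.944), and Cxcr6, a chemokine receptor (r = 0.981, rho = 0.881), whose signal was 617 in the TAC 1 day array against at most 43.7 in any other. Mt2 ran closest to Fstl3, an inhibitor of activin (r = 0.978, rho = 0.895), and Rab29 (r = 0.975, rho = 0.930), and Mt1 to Synpo2, an actin-binding protein (r = 0.966, rho = 0.972), and Mbd3 (r = 0.957, rho = 0.846). For Klf15 the closest was Srf, the serum response factor (r = 0.932, rho = 0.958), then Pla2g4e (r = 0.908, rho = 0.881).

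For Cdkn1a they were Adamts9, a matrix protease (r = 0.936, rho = 0.937), and Pak4 (r = 0.923, rho = 0.839), for Sgk1 the phospholipase Pla2g4a (r = 0.925, rho = 0.937) and Lyst (r = 0.923, rho = 0.881), and for Tsc22d3 Zfp521 (r = 0.925, rho = 0.909) and Jun, a subunit of AP-1 (r = 0.918, rho = 0.888). Fkbp5 was closest to Ubfd1 (r = 0.958, rho = 0.797) and Map3k6 (r = 0.949, rho = 0.895), and Klf9 to Sc5d, an enzyme of cholesterol synthesis (r = 0.954, rho = 0.916), and Ncapd3 (r = 0.952, rho = 0.895). Zbtb16 had the weakest neighbours, Rtbdn (r = 0.837, rho = 0.629) and Rev1 (r = 0.818, rho = 0.783). All arrays share the same scaling, and no member was among the 2 closest of another.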

How the data were processed

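Total RNA of left ventricle (5 µg input, per the labels' protocols) was measured on 12 Affymetrix arrays of 45101 probe sets. The authors deposited linear probe-set intensity values, for which the submitters' processing notes name GCOS. How they were computed and scaled is not given in the sources used here. No depth applies to arrays, whose number limits the precision.

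Intensities were scaled to a common 2% trimmed mean, because the arrays differed by over 5%, raised to a floor at the 20th percentile (4.54) and put on the log2 scale. A gene is its brightest probe set with 1 symbol. Dim genes, whose mean log2 did not exceed the 40th percentile (a signal of 18.1), were left out, and 11623 were tested. Each procedure was paired with the control of its series and time, from the sample titles. The fits used limma 3.58.1 in R 4.3.3 with pair as the block, a trend of variance with intensity and Benjamini-Hochberg adjustment at 0.05 over all tested genes, for the mean of 6 pairs (5 residual degrees of freedom), for TAC, MI and their difference (3), and for the 1 day sham against the 5 later controls (4). As each group is 1 array, p-values rest on the spread between arrays, with each gene's variance drawn toward the intensity trend. In the fits over pairs this spread holds differences between models or times, and it may be technical in part. The fits were tested on simulated data.

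The members and lists were chosen with earlier results of these data known. Named genes are all members, for each list the 2 measured genes highest and the 2 lowest in the mean of 6 pairs, and for each member the 2 genes of highest r. Genes named beyond these (Dusp1, Angptl4, Ccng1, Phlda3, Nr3c1, Hsd11b1, Mtf1, Slc39a10, Dyrk1b and the KLF15 targets Bckdha, Bckdhb and Gpt) were chosen for their role or after their values were seen. Alternatives tried were the deposited scale, quantile normalization, floors at the 10th and 40th percentiles, the mean of all probe sets, no filter on dim genes, no intensity trend, no block, another fold threshold and leaving out each pair or control.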

Additional observations from a re-analysis of the deposited data

Results flagged for a closer look

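For each member, the 6 ratios and the 6 control signals were looked at for a single array far from the rest, in which a gap to the nearest value takes up most of the range (Dixon's 95% limit). Of 20 sets of 6 values, 5 held such an array, and all 5 were 1 day arrays. The limit flags about 1 in 20 of unselected sets. These members were chosen with earlier results of these data known, so that rate is no test of them. Among ratios, the TAC 1 day pair stood apart for Gadd45g, at 3.61, and for Fkbp5, at 1.45. Among controls, the 1 day sham stood apart for Mt1, at a log2 signal of 12.17, for Mt2, at 10.01, and, on the low side, for Klf9, at 10.98. The sets share arrays and are not independent.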

How the results depend on the processing

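Directions of the 5 members called in the mean of 6 pairs held under all 14 alternatives, and those of Mt1 and Mt2 in the 1 day sham under all 13, but calls did not. Called in the mean of 6 pairs were 5 members, 2 with the mean of all probe sets, 0 with no filter on dim genes, 0 with no intensity trend and 0 with no replicate block, and from 0 (without the TAC 1 month pair) to 6 (without the TAC 1 day pair) with 1 pair left out. Over all genes the count of 1266 became 494 with no replicate block, 800 on the deposited scale, 698 with the mean of all probe sets, 200 with no intensity trend, 0 with no filter (3714 at an unadjusted p under 0.05) and 256 to 1497 with 1 pair left out. For TAC the 2 called became 0 on the deposited scale, 0 with the mean of all probe sets, 0 with no filter and 0 with no intensity trend, and 0 to 3 with 1 pair left out, while over all genes 291 became 102, 107, 0 and 0 and 21 to 680. For MI the 0 called became 0 to 4, and over all genes 109 became 59 with the mean of all probe sets, 0 with no filter, 0 with no intensity trend and 0 to 1523 (1523 without the TAC 1 day pair). For the 1 day sham the 2 called became 1 with quantile normalization, 1 with the floor at the 40th percentile, 0 with the mean of all probe sets, 0 with no intensity trend, 4 with the TAC series shams only, and 1 to 2 with 1 control left out. Over all genes 3 became 139 there with no filter, 204 with the TAC series shams only 1 with the floor at the 40th percentile, 1 with the mean of all probe sets and 2 to 62 with 1 control left out. The 9 changes past 2-fold became 16 at 1.5-fold. On the deposited scale the median of all genes shifted to -0.23 in the TAC 1 day pair, 0.21 and 0.31 in the later TAC pairs, 0.16 at 1 week of MI and 0.13 in the 1 day sham. The causes were not tested.

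Signs turned in the following values, none of them called, with the range over the pairs left out. In the mean of 6 pairs Zbtb16 ran from -0.40 to 0.045. For TAC, Zbtb16 ran from -0.55 to 0.55. For MI, Klf15 ran from -0.31 to 0.14, Tsc22d3 from -0.013 to 0.41 and Mt1 from -0.034 to 0.34. For TAC minus MI, Fkbp5 ran from -0.14 to 0.52, Zbtb16 from -0.05 to 1.05, Mt2 from -0.32 to 0.97, Tsc22d3 from -0.0041 to 0.41 and Cdkn1a from -1.27 to 0.38. With the mean of all probe sets Tsc22d3 was at -0.019 in the mean of 6 pairs and -0.081 for MI, Klf9 at 0.035 for TAC, and Cdkn1a at 0.16 and Mt1 at -0.0051 for TAC minus MI. On the deposited scale Klf15 was at 0.026 for MI. Ratios of single pairs that turned were Klf9 at 0.088 (TAC 1 week) and 0.064 (TAC 1 month), Tsc22d3 at -0.11 (TAC 1 day) and 0.14 (MI 1 week) and Mt1 at 0.033 (MI 1 month) on the deposited scale, and Tsc22d3 at 0.068 (MI 1 week) and Mt1 at 0.032 (MI 1 month) with quantile normalization. With the mean of all probe sets they were Klf9 at 0.38 (TAC 1 week) and 0.01 (Ang II), Tsc22d3 at -0.084 (TAC 1 day) and -0.052 (MI 1 month), Cdkn1a at -0.48 (MI 1 month), and Mt1 at 0.40 (MI 1 month) and -0.54 (Ang II). The cause was not tested.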
